A study of Mus musculus with 8 samples.

Results

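Quadriceps RNA from male CD2F1 mice, 8 weeks old when treated, was examined for the genes of 2 oxidative routes of muscle mitochondria, the tricarboxylic acid (TCA) cycle with its malate-aspartate shuttle and the breakdown of the branched-chain amino acids. The genes were taken by their symbols from the deposited table, with 16 for the TCA cycle and shuttle and 18 for branched-chain catabolism. All 34 were among the 12896 genes listed, and all 34 passed the filter that left 12883 genes for testing. One group of 4 mice had received Folfiri, a combination of 5-fluorouracil (30 mg/kg), leucovorin (90 mg/kg) and CPT-11 (irinotecan, 24 mg/kg), injected intraperitoneally 2 times a week for up to 5 weeks. The other group of 4 had received the same volume of vehicle. The mice carried no tumor, so the comparison is of the drugs in otherwise healthy animals, and each library came from the muscle of a separate mouse. The question was whether transcripts of either route differed between the groups, and whether the routes differed from each other.

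The TCA cycle oxidizes acetyl-CoA to carbon dioxide in the mitochondrial matrix and passes the electrons to the respiratory chain as NADH and FADH2. The malate-aspartate shuttle moves the electrons of cytosolic NADH into the matrix through paired malate dehydrogenases and aspartate aminotransferases. Leucine, isoleucine and valine differ from most amino acids in that muscle, rather than liver, starts their breakdown. The mitochondrial aminotransferase Bcat2 turns them into keto acids, the branched-chain keto acid dehydrogenase commits these to oxidation, and its kinase Bckdk switches that enzyme off. Leucine ends as acetyl-CoA and acetoacetate, valine gives propionyl-CoA and isoleucine gives both acetyl-CoA and propionyl-CoA. Propionyl-CoA enters the TCA cycle as succinyl-CoA after carboxylation by Pcca and Pccb and rearrangement by Mcee and Mut, which makes these enzymes the junction of the pathways.

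Because most of the members encode mitochondrial enzymes, the promoters were searched on both strands for elements bound by known activators of mitochondrial genes. RefSeq promoter windows of 300 bases (GRCm38.p6, 250 before to 50 after each start site) matched 30 of the 34 genes. Idh3a, Dbt, Mut and Acat1 were not matched. A member counted if any of its windows held the element, whereas the shares beside it are of single windows, so they are not directly comparable. The core of the NRF-1 element, CGCATGCG, stood in the windows of 2 members, Ogdh and Pccb, and in 1.87% of all 32851 windows. The GABP/ETS element, CCGGAAGT, stood in 1 member, Dlst, and in 3.89% of all windows, and the oestrogen-related receptor element, TNAAGGTCA, in 0 of 30 members and 1.28% of all windows. These 3 stretches are shown since they include Ogdh and Pccb, whose levels are described below, with the matched letters in capitals and each read along the strand of its gene.
Ogdh, chr11:6292534-6292561, plus strand, motif beginning 14 bases before 1 of the 6 start sites listed: aggtgttgtgCGCATGCGtaactcaact
Pccb, chr9:101034901-101034928, minus strand, motif beginning 34 bases before the start site: acgctctctgCGCATGCGtcctgaggtg
Dlst, chr12:85110823-85110850, plus strand, motif at the start site and read on the opposite strand: ggccggtctcACTTCCGGttgctgccgg
A match describes these letters and is not evidence that a factor was bound.

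The libraries held 8505985 to 21056818 counted reads, and each member had between 131 and 26250 reads in a library. Levels are given as CPM, read counts scaled to library size with trimmed-mean (TMM) factors, and levels of different genes are compared only as CPM per kilobase of transcript. Correlations between replicates over all genes ran from 0.948 to 0.978. The labelled tissue was evident, since 10 of 10 muscle markers were measured in all 8 libraries with summed levels of 123519 to 232974 CPM. Since the RNA came from whole muscle, fewer cells of a type and less RNA per cell cannot be told apart.

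Most genes of both routes read slightly lower in Folfiri muscle, but none passed the test. The log2 fold change of Folfiri over Vehicle was negative for 30 of the 34 members, or 88.2%, against 48.6% of all genes tested and 55.3% of the 7680 genes with a mean of at least 10 CPM. The median over all 34 was -0.24, against 0.01 over all genes tested, and the members ranged from -0.57 for Pcca to 0.20 for Suclg2. The median standard error of single members was 0.21, about as large as this median, and is not the uncertainty of the median itself. By the edgeR quasi-likelihood test, 0 of 34 members had a Benjamini-Hochberg adjusted p under 0.05 in either direction, and the lowest was 0.434 (Pcca), while 0.00776% of all genes tested passed it in the higher direction and 0 in the lower. The edgeR exact test, the likelihood ratio test and DESeq2 also called 0 members. At an unadjusted p under 0.05, 1 member was lower and 0 were higher, against 4.02% and 5.48% of all genes tested. In 1 member, Pcca, all Folfiri libraries lay below all Vehicle libraries, which held for 2.66% of all genes tested. In 0 members did they lie above, against 2.87% of all genes tested.

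**Figure D1:**
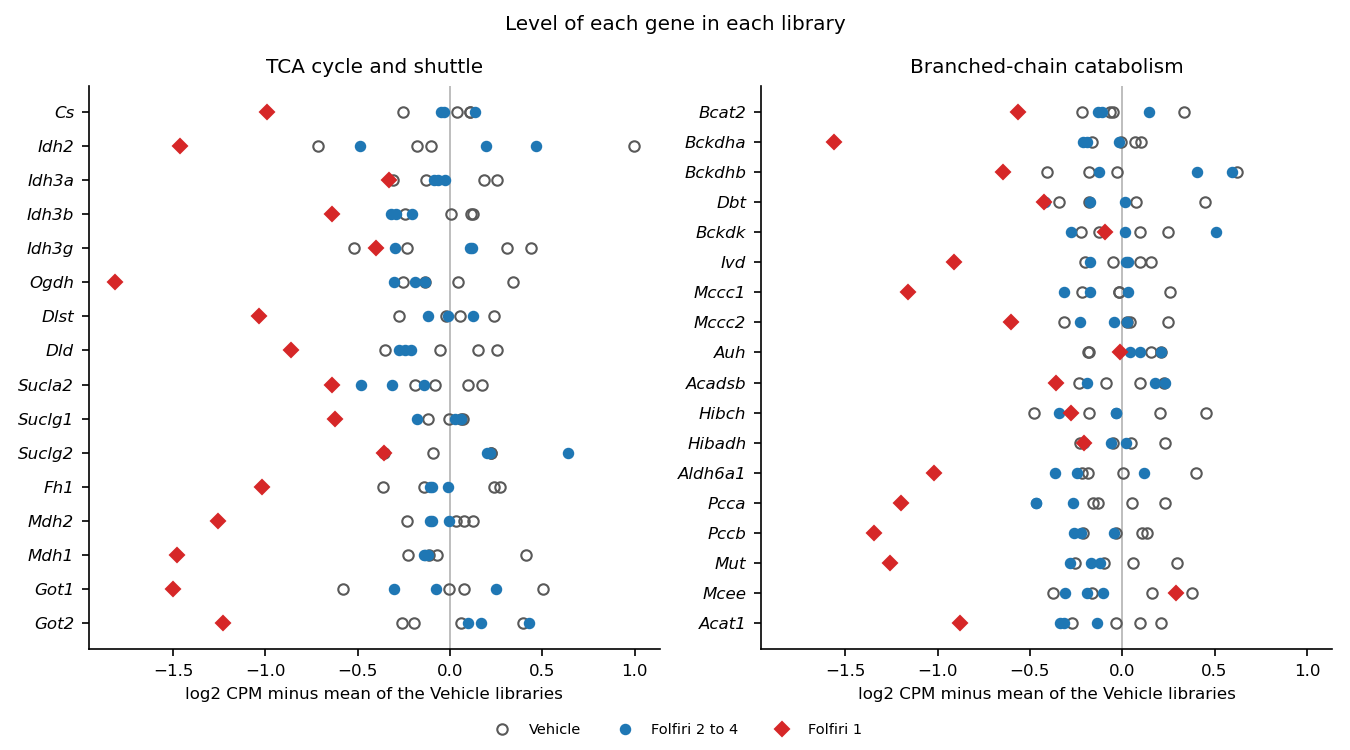
Each row is a gene and each symbol a library, placed on the x axis by its log2 CPM minus the mean log2 CPM of the 4 Vehicle libraries. Open circles are Vehicle, blue circles Folfiri 2 to 4 and red diamonds Folfiri 1, which was the lowest of all 8 libraries in 28 of the 34 genes.

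The extremes of both groups were often the same libraries. The Folfiri 1 library was the lowest of all 8 in 28 of the 34 members (82.4%), in 15 of 16 for the TCA cycle and shuttle and 13 of 18 for branched-chain catabolism, against 22.4% of all genes tested and 29.8% of genes with at least 10 CPM. It lay below all 4 Vehicle libraries in 28 members, whereas Folfiri 2 did so in 8, Folfiri 3 in 8 and Folfiri 4 in 5. For all genes tested those shares were 27.3%, 15.2%, 19.7% and 19.4%. In 16 members, Folfiri 2, 3 and 4 all lay inside the Vehicle range. The same share over all genes tested was not computed, so whether this count is unusual cannot be judged. At the other end, Vehicle 2 was the highest library in 21 of 34 members (61.8%), against 16% of all genes tested.

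Summed over the 16 TCA cycle and shuttle genes, Vehicle libraries held 10008, 11234, 7682 and 9007 CPM and Folfiri libraries 4720, 8516, 8875 and 8735 CPM. Folfiri 1 stood apart at 49.8% of the Vehicle mean, and the other Folfiri libraries lay within the Vehicle range. The means were 9483 ± 1507 and 7712 ± 2000 (SD, n = 4 each), a ratio of 0.813, and the Folfiri mean without Folfiri 1 was 8709. Summed over the 18 branched-chain genes, the levels were 2241, 2635, 2056 and 2164 CPM in Vehicle and 1387, 2183, 2113 and 2002 CPM in Folfiri. Folfiri 1 was again lowest, at 61.0% of the Vehicle mean, and Folfiri 4 was just below the lowest Vehicle library. The means were 2274 ± 252 and 1921 ± 364 (SD, n = 4 each), a ratio of 0.845, and without Folfiri 1 the Folfiri mean was 2099.

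**Figure D2:**
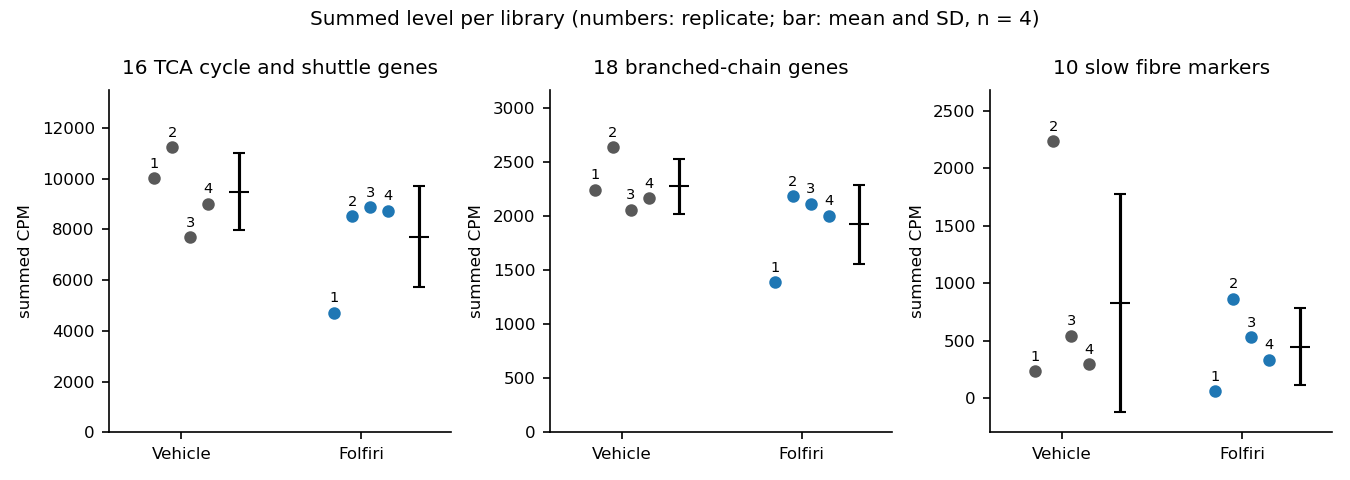
Summed CPM (y axis) of the TCA cycle and shuttle genes, the branched-chain genes and 10 slow fibre markers in each library, with the replicate number beside each point and the mean and SD of each group as a bar. Folfiri 1 is lowest and Vehicle 2 highest in all 3 panels.

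The routes themselves did not separate. The median log2 fold change was -0.29 for the TCA cycle and shuttle, with 15 of 16 genes negative, and -0.22 for branched-chain catabolism, with 15 of 18 negative. The difference of the medians, -0.07, was smaller than 0.17, the pooled SD within groups of the same difference taken library by library. Without Folfiri 1 the TCA median was -0.07 and the branched-chain median -0.15, and 22 members lay within 0.2 of 0. Without Vehicle 2 the medians were -0.14 and -0.17. The order of the routes turned in both cases, and also without Vehicle 1 (difference 0.05) and with voom quality weights (0.06). With both Folfiri 1 and Vehicle 2 left out, a choice made after the data were seen, the medians were 0.005 and -0.05, with 7 of 16 and 12 of 18 genes negative.

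**Figure D3:**
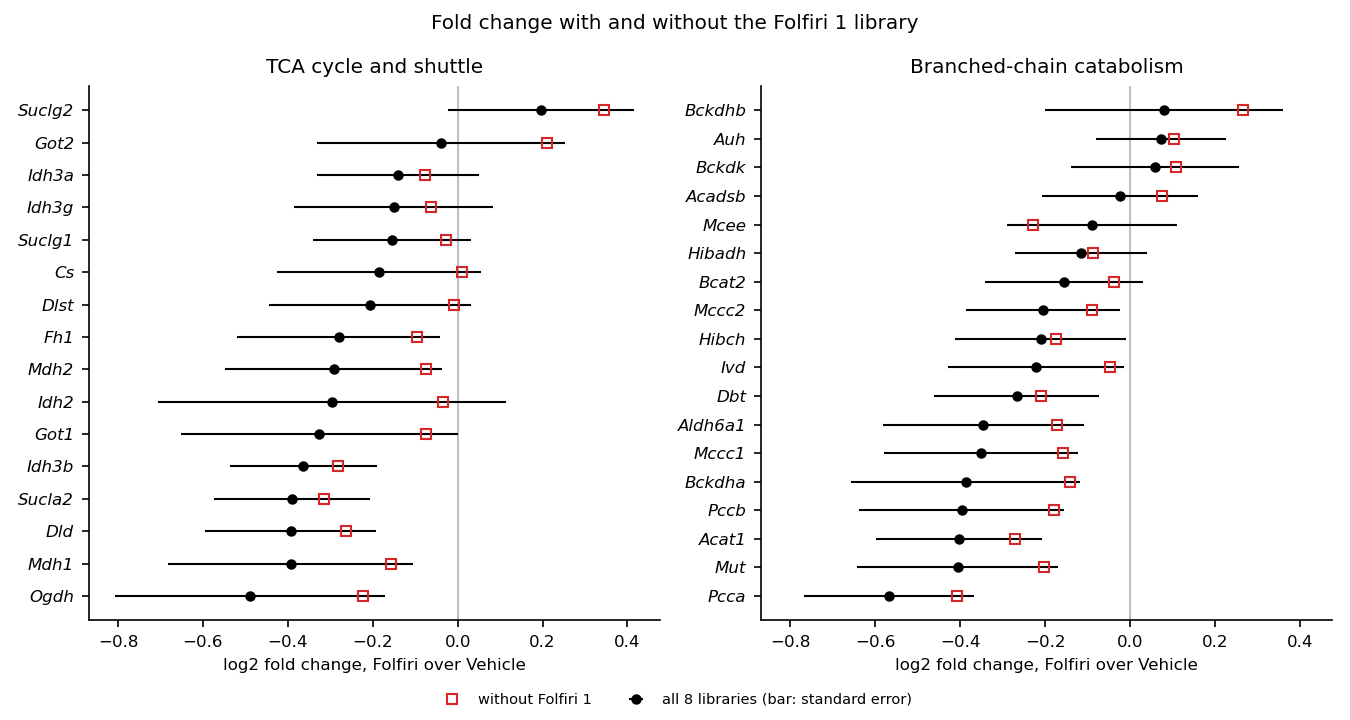
The log2 fold change of Folfiri over Vehicle (x axis) for each gene with its standard error as a bar (black, all 8 libraries) and the same without Folfiri 1 (red squares). Without Folfiri 1, 27 of 34 values remain below 0 and 22 lie within 0.2 of it.

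In Vehicle muscle the most abundant members per length were TCA cycle and shuttle transcripts. The cytosolic and mitochondrial malate dehydrogenases Mdh1 and Mdh2 read 503 and 690 CPM per kilobase, the succinyl-CoA ligase subunit Sucla2 404, the isocitrate dehydrogenase subunit Idh3a 382 and citrate synthase (Cs) 357. The lowest of the TCA cycle genes was Suclg2 at 6.51 CPM per kilobase. Among branched-chain genes, Acat1 was highest at 116 CPM per kilobase, followed by Hibadh at 94.3, Bckdha at 93.7, Aldh6a1 at 82.4 and Bckdk at 69.1, and Dbt was the lowest. Hibadh and Bckdha did not differ beyond their spread (SD 12.6 and 7.56, n = 4).

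Citrate synthase joins acetyl-CoA to oxaloacetate at the entry of the cycle. Cs (mm9 chr10:127774888-127799535) read 1080, 1080, 839 and 1030 CPM in Vehicle and 505, 979, 970 and 1100 CPM in Folfiri. Only Folfiri 1 was below the Vehicle range, and Folfiri 4 was the highest of all 8. Its log2 fold change of -0.18 (SE 0.24) did not pass the edgeR quasi-likelihood test (adjusted p = 0.824) and was 0.01 without Folfiri 1 and -0.30 without Folfiri 4.

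The NAD-dependent isocitrate dehydrogenase, a rate-controlling step, is built of catalytic Idh3a and of Idh3b and Idh3g. Idh3a read 1080, 1030, 733 and 828 CPM in Vehicle and 721, 890, 866 and 854 CPM in Folfiri. These groups overlapped almost wholly, with a log2 fold change of -0.14 that ranged from -0.23 without Vehicle 3 to -0.05 without Vehicle 1 and was -0.08 without Vehicle 2 or Folfiri 1. Idh3b read 572, 577, 447 and 530 CPM in Vehicle and 340, 423, 458 and 431 CPM in Folfiri. Here 3 of the 4 Folfiri libraries lay below all Vehicle libraries, and Folfiri 3 was just above Vehicle 3. Idh3b had a log2 fold change of -0.36 (SE 0.17, edgeR quasi-likelihood adjusted p = 0.537), and 5 bases of the gene overlap Nop56 on the opposite strand. The NADP-dependent Idh2 spread widely, from 151 to 494 CPM in Vehicle and from 89.8 to 342 CPM in Folfiri.

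The oxoglutarate dehydrogenase complex, which forms succinyl-CoA, is built of the catalytic Ogdh with Dlst and Dld. Ogdh (mm9 chr11:6191600-6259097) read 1450, 1780, 1180 and 1280 CPM in Vehicle and 399, 1140, 1280 and 1230 CPM in Folfiri. Folfiri 1 held a lower share of the Vehicle mean than in any other member. Folfiri 2 lay just below the Vehicle range, and Folfiri 3 and 4 lay within it. For Ogdh the log2 fold change was -0.49 (SE 0.32, edgeR quasi-likelihood adjusted p = 0.642) and -0.22 without Folfiri 1. Dld, the dihydrolipoamide dehydrogenase that this complex shares with the branched-chain and pyruvate dehydrogenases, read 432, 464, 304 and 374 CPM in Vehicle and 214, 328, 321 and 336 CPM in Folfiri. Folfiri 2, 3 and 4 fell between Vehicle 3 and 4, and the log2 fold change was -0.39 (SE 0.20, edgeR quasi-likelihood adjusted p = 0.554) and -0.26 without Folfiri 1. Dlst, the succinyltransferase core, overlapped fully outside Folfiri 1, with a log2 fold change of -0.21 and of -0.01 without Folfiri 1.

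Succinyl-CoA ligase pairs Suclg1 with either an ADP-forming subunit, Sucla2, or a GDP-forming one, Suclg2. Sucla2 read 956, 905, 741 and 800 CPM in Vehicle and 543, 681, 605 and 767 CPM in Folfiri. In 3 of the 4 Folfiri mice it was below every Vehicle mouse, and Folfiri 4 lay between Vehicle 3 and 4. Its log2 fold change was -0.39 (SE 0.18, edgeR quasi-likelihood adjusted p = 0.536). Suclg2, far less abundant, read 17.1 to 25.6 CPM in Vehicle and 17.1 to 34.1 CPM in Folfiri and was the TCA cycle gene with a positive log2 fold change, 0.20 (SE 0.22).

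Fumarase and the malate-aspartate shuttle repeated the pattern of a single low library. Mdh1 read 896, 1290, 828 and 925 CPM in Vehicle and 348, 882, 893 and 879 CPM in Folfiri. Folfiri 2, 3 and 4 were nearly equal and inside the Vehicle range, and Folfiri 1 was far below it. For Mdh1 the log2 fold change was -0.39 (SE 0.29, edgeR quasi-likelihood adjusted p = 0.68), -0.16 without Folfiri 1 and -0.23 without Vehicle 2. For the summed levels of Mdh1, Mdh2, Got1 and Got2, Folfiri 1 stood at 37.8% of the Vehicle mean and the mean of the other Folfiri libraries at 93.8%. For fumarase, Fh1, these values were 48.6% and 93.6%. Got2, the mitochondrial aspartate aminotransferase, had a log2 fold change of -0.04 (SE 0.29), and this was 0.21 without Folfiri 1.

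Transamination by Bcat2 opens branched-chain breakdown. Bcat2 read 61.3, 68.2, 90.1 and 69.1 CPM in Vehicle and 48.2, 66.3, 65.3 and 79.1 CPM in Folfiri. Folfiri 1 was lowest, and the remaining libraries of both groups mixed. The log2 fold change was -0.16 (SE 0.19, edgeR quasi-likelihood adjusted p = 0.807), -0.04 without Folfiri 1, -0.03 without Vehicle 3 and -0.27 without Folfiri 4. Bcat1, its cytosolic counterpart, had no row in the table and is not analysed here.

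The committing step is held by the dehydrogenase subunits Bckdha and Bckdhb, the transacylase Dbt and the kinase Bckdk. Bckdha read 148, 174, 165 and 178 CPM in Vehicle and 56.1, 145, 143 and 164 CPM in Folfiri. Folfiri 1, 2 and 3 lay below all Vehicle libraries, although Folfiri 2 and 3 did so narrowly. Bckdha had a log2 fold change of -0.39 (SE 0.27, edgeR quasi-likelihood adjusted p = 0.665) and -0.14 without Folfiri 1, which held 33.7% of the Vehicle mean. Bckdk read 233, 210, 180 and 168 CPM in Vehicle and 184, 198, 279 and 162 CPM in Folfiri. Its highest and lowest libraries were both Folfiri, and Folfiri 1 was in the middle at 93.1% of the Vehicle mean. Bckdk had a log2 fold change of 0.06 (SE 0.20, edgeR quasi-likelihood adjusted p = 0.939), which changed sign when Vehicle 4 or Folfiri 3 was left out. Bckdhb and Dbt, both under 60 CPM in every library, had log2 fold changes of 0.08 (SE 0.28) and -0.27 (SE 0.19).

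In the leucine branch, isovaleryl-CoA is oxidized by Ivd, carboxylated by Mccc1 with Mccc2 and hydrated by Auh. Mccc1 read 58.1, 80.8, 66.8 and 66.7 CPM in Vehicle and 30.2, 54.4, 59.8 and 69.1 CPM in Folfiri. Folfiri 1 and 2 were below all Vehicle libraries, and Folfiri 3 and 4 were within their range. The log2 fold change was -0.35 (SE 0.23, edgeR quasi-likelihood adjusted p = 0.641) and -0.16 without Folfiri 1. The other 3 genes of the branch ranged from -0.22 (Ivd) to 0.07 (Auh) on the same log2 scale.

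Acat1, the thiolase that ends isoleucine breakdown and also takes part in ketone body use, had the highest level per length of the branched-chain genes. It read 379, 448, 321 and 415 CPM in Vehicle and 211, 353, 307 and 312 CPM in Folfiri. Folfiri 1, 3 and 4 lay below every Vehicle library, and Folfiri 2 was between Vehicle 3 and Vehicle 1. Acat1 had a log2 fold change of -0.40 (SE 0.19, edgeR quasi-likelihood adjusted p = 0.544). Acadsb, the short/branched-chain acyl-CoA dehydrogenase of the same branch, had a log2 fold change of -0.02 (SE 0.18).

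In the valine branch, Hibch and Hibadh act on hydroxyisobutyrate intermediates and Aldh6a1 forms propionyl-CoA. Aldh6a1 read 272, 358, 239 and 233 CPM in Vehicle and 134, 294, 229 and 211 CPM in Folfiri. Folfiri 1 was well below all Vehicle libraries, Folfiri 3 and 4 slightly so, and Folfiri 2 was inside the range. Aldh6a1 had a log2 fold change of -0.35 (SE 0.24, edgeR quasi-likelihood adjusted p = 0.661), -0.17 without Folfiri 1, -0.19 without Vehicle 2 and -0.53 without Folfiri 2. Its gene overlaps Ccdc176 on the opposite strand over 3063 bases, and whether reads were assigned by strand is not given in the sources used here. Hibadh and Hibch had log2 fold changes of -0.12 and -0.21, and Folfiri 1 was not their lowest library.

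The propionate branch held Pcca, the member that differed most. Pcca (mm9 chr14:122933550-123289166), the biotin-carrying subunit of propionyl-CoA carboxylase, read 99.9, 113, 86.2 and 87.9 CPM in Vehicle and 41.9, 69.5, 69.5 and 80.0 CPM in Folfiri. All Folfiri libraries lay below all Vehicle libraries, with the closest at 80.0 and 86.2 CPM. The means were 96.7 ± 12.4 and 65.2 ± 16.3 CPM (SD, n = 4 each), and the log2 fold change was -0.57 (SE 0.20). By the edgeR quasi-likelihood test its unadjusted p was 0.0148 and its adjusted p 0.434, so it did not pass. It was -0.41 without Folfiri 1 and -0.32 without both Folfiri 1 and Vehicle 2.

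Pccb, the partner subunit that binds the acyl-CoA, read 121, 154, 151 and 137 CPM in Vehicle and 55.1, 120, 117 and 136 CPM in Folfiri. Folfiri 4 lay inside the Vehicle range, and Folfiri 2 and 3 lay just under it. The log2 fold change was -0.40 (SE 0.24, edgeR quasi-likelihood adjusted p = 0.61) and -0.18 without Folfiri 1. Mut, the vitamin B12-dependent mutase that yields succinyl-CoA, read 138, 163, 111 and 124 CPM in Vehicle and 55.4, 122, 109 and 118 CPM in Folfiri. Folfiri 2 and 4 lay inside the Vehicle range and Folfiri 3 just under it, and the log2 fold change was -0.41 (SE 0.24, edgeR quasi-likelihood adjusted p = 0.596) and -0.20 without Folfiri 1. Mcee, the epimerase between them, was the member in which Folfiri 1 was highest relative to Vehicle, at 120.1% of the Vehicle mean, with a log2 fold change of -0.09 (SE 0.20). Over this branch the summed level of Folfiri 2, 3 and 4 averaged 84.5% of the Vehicle mean, the lowest such value of the 13 enzyme steps into which the members were grouped. Folfiri 1 stood at 47.5%.

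Ratios of reads of partner genes within a library do not depend on library scaling. Of 9 such ratios, 1 did not overlap between groups. The log2 ratio of Idh3a to Idh3b was 0.912, 0.841, 0.713 and 0.644 in Vehicle and 1.083, 1.073, 0.920 and 0.986 in Folfiri. The groups lay close to each other, with means of 0.78 ± 0.12 and 1.02 ± 0.08 (SD, n = 4 each). When every other gene tested was set over Idh3b, 14.5% had Folfiri wholly above Vehicle, so this separation was shared by many genes. The log2 ratio of Suclg2 to Sucla2 averaged -5.27 ± 0.26 in Vehicle and -4.70 ± 0.22 in Folfiri (SD, n = 4 each), with groups that overlapped. The log2 ratio of the kinase Bckdk to its target subunit Bckdha was 0.656, 0.270, 0.123 and -0.084 in Vehicle and 1.714, 0.447, 0.968 and -0.018 in Folfiri. Folfiri 1 and 3 were above the Vehicle range, and Folfiri 2 and 4 were within it. For Pcca to Pccb the means were -0.55 ± 0.23 and -0.68 ± 0.19 (SD, n = 4 each), well within the spread.

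**Figure D4:**
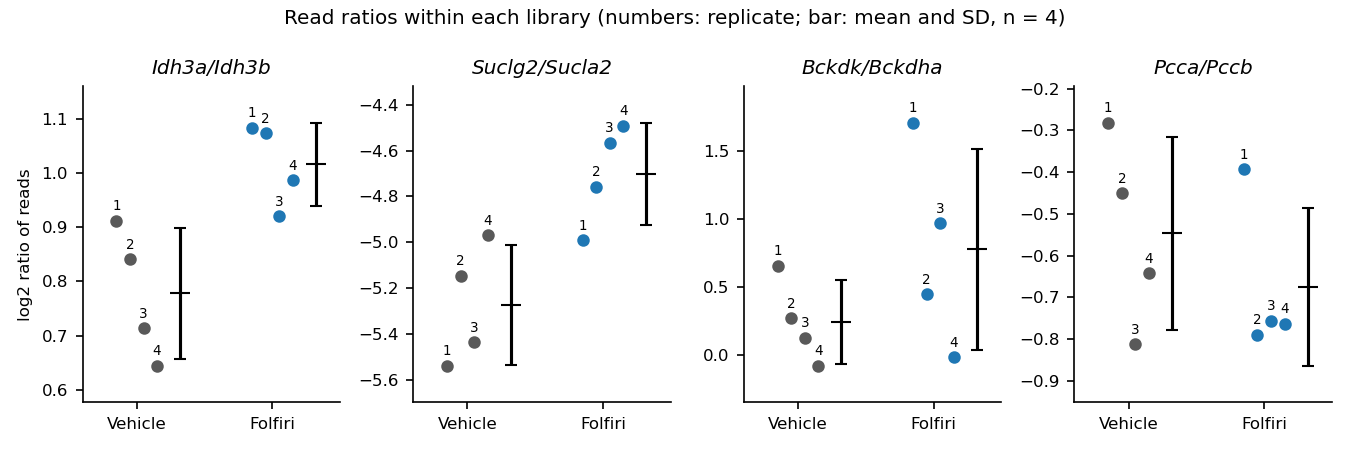
The log2 ratio of reads (y axis) of 4 pairs of partner genes in each library, with the replicate number beside each point and the mean and SD as a bar; the y axes differ between panels. The groups are apart for Idh3a/Idh3b and overlap for Suclg2/Sucla2, Bckdk/Bckdha and Pcca/Pccb.

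The library that carried the low values differed in other ways too, whose part in the result was not tested. Over 10 slow fibre markers, Folfiri 1 was lowest and Vehicle 2 highest for 10 of 10, with summed levels of 234, 2235, 543 and 295 CPM in Vehicle and 61.6, 866, 532 and 334 CPM in Folfiri, none of them at 0. Fibre types differ in their content of mitochondria, and whether this bears on the members was not tested. Endothelial markers summed to 161 CPM in Folfiri 1, where 7 of 8 were lowest, against 297 to 445 CPM in Vehicle and 318 to 369 CPM in the other Folfiri libraries. The 11 hepatocyte markers summed to 293 CPM in Folfiri 1, against 15.4 to 68.0 CPM in Vehicle and 52.5 to 114 CPM in the rest. Most of each Vehicle sum was Trf, at 14.6 to 67.2 CPM in Vehicle and 33.7 to 61.5 CPM in Folfiri. Alb read 0.241 to 6.13 CPM in Vehicle and 3.01 to 125 CPM in Folfiri. Several markers, among them Fgb and Ttr, were at 0 in Vehicle 1, 3 and 4. The sum of 12 adipocyte markers was highest in Vehicle 2, at 2609 CPM, and 9 of the 12 were highest there. It was 968 to 1547 CPM in the other Vehicle and 743 to 1485 CPM in the Folfiri libraries. Slc2a4, at 507 to 514 CPM in Vehicle, was a large part of the lower sums and varied little there. Adipoq ranged from 3.07 to 108 CPM in Vehicle and from 3.16 to 38.4 CPM in Folfiri. Of 11 brown adipocyte markers, 9 were highest in Vehicle 2. Among them, Ucp1 read 251 CPM in Vehicle 2 and 19.2 CPM in Vehicle 3, against 0.615 and 1.13 CPM in the other Vehicle and 0.431 to 1.66 CPM in the Folfiri libraries. Their sum, mostly from Cox7a1, Cpt1b and Cox8b, which muscle also expresses, was 820 to 2041 CPM in Vehicle and 1082 to 1482 CPM in Folfiri.

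The 9 macrophage markers measured summed to 70.3 to 118 CPM in Vehicle and 128 to 174 CPM in Folfiri. Fast fibre markers summed to 123675 to 237472 CPM in Vehicle and 123195 to 223996 CPM in Folfiri. The lowest libraries were Vehicle 2 and Folfiri 1, at 66.3% and 66.1% of the Vehicle mean. For the 10 general muscle markers Folfiri 1 was lowest too, at 123519 CPM or 63.5% of the Vehicle mean, with 5 of the 10 lowest there. Its low marker sums were therefore not confined to slow fibre markers. Fibroblast markers summed to 1180 to 1583 CPM in Vehicle and 1485 to 1998 CPM in Folfiri. The 4 erythroid markers measured summed to 63.8 to 143 CPM in Vehicle and 17.8 to 99.3 CPM in Folfiri.

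Levels also varied with transcript length, most steeply in Folfiri 1 and 3. In Folfiri 1 the median log2 deviation from the Vehicle mean, over all genes with at least 10 CPM, was 0.49 for transcripts under 1000 bases, 0.05 for 1000 to 2000 bases and -0.14 for those over 6000 bases. In Folfiri 3 it was 0.25 under 1000 bases, 0.11 for 1000 to 2000 bases and -0.19 over 6000 bases. The members in Folfiri 1 lay below its all-gene medians, at -0.64 for the 12 of 1000 to 2000 bases and -0.95 for the 14 of 2000 to 3000 bases, where the all-gene values were 0.05 and -0.09. The 6 members of 3000 to 4000 bases were at -0.65, where the all-gene value was -0.12, so the members did not fall steadily with length. The end classes held 1 member each. The shortest, Mcee (696 bases), was at 0.29 and the longest, Ogdh (6984 bases), at -1.82. With the length trend removed from each library, a choice made after the data were seen, the route medians were -0.33 and -0.23.

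**Figure D5:**
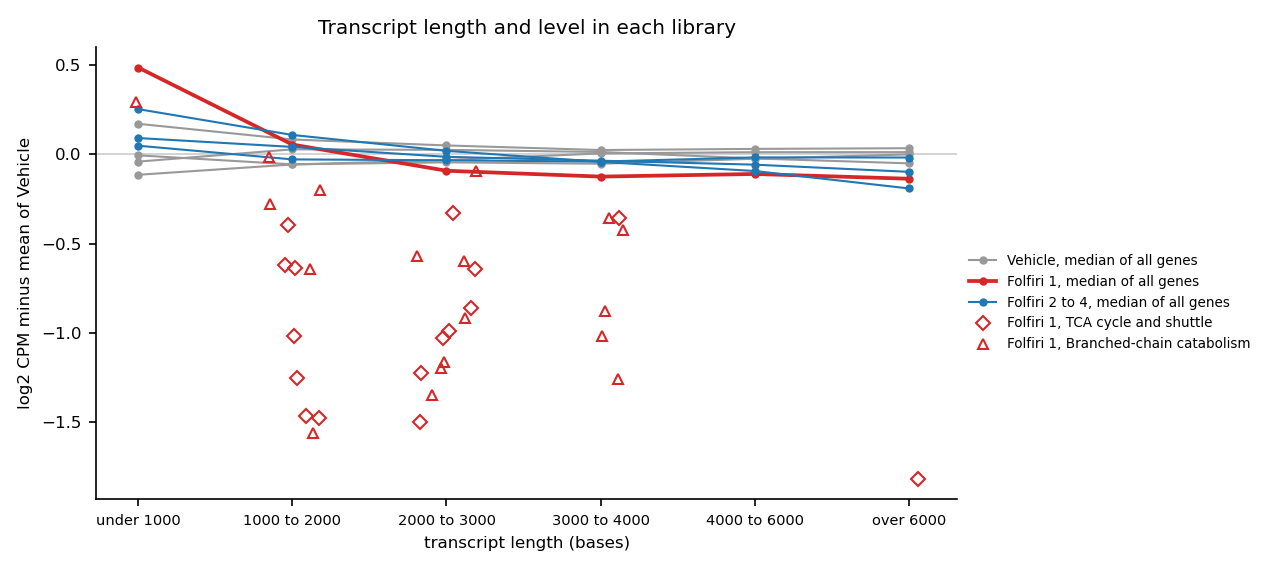
Median log2 CPM minus the Vehicle mean (y axis) of all genes with at least 10 CPM in 6 classes of transcript length (x axis), a line for each library, with the members in Folfiri 1 as open symbols spread sideways at random for legibility. Short transcripts are high in Folfiri 1, at 0.49 under 1000 bases, and in Folfiri 3, at 0.25, and most members lie below the line of their class.

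Of 26 further genes of pyruvate entry, the remaining cycle and anaplerosis, 0 were called, 20 (76.9%) had a negative log2 fold change and the median was -0.26, beside 55.3% and -0.03 for genes with at least 10 CPM. Folfiri 1 was the lowest library in 57.7% of the 26. Groups were apart in 1 of the 26, with Folfiri below, as in 2.66% of all genes tested. This was Pdhb, the pyruvate dehydrogenase subunit, at 121 to 150 CPM in Vehicle and 100 to 118 CPM in Folfiri (log2 fold change -0.27, SE 0.15). Glud1, glutamate dehydrogenase, had a log2 fold change of -0.27 (SE 0.15). Pck1, the gluconeogenic carboxykinase also found in fat, had the lowest unadjusted p of the 26, 0.00993 by the edgeR quasi-likelihood test (adjusted p = 0.422). It reached 371 CPM in Vehicle 2 and 86.4 CPM in Vehicle 3 but 2.94 and 4.10 CPM in the other Vehicle and 1.69 to 18.3 CPM in Folfiri libraries. Its log2 fold change was -3.94 (SE 1.29).

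Of 19 further genes of branched-chain, thiolase and ketone body steps, 0 were called, 11 (57.9%) were negative and the median was -0.10, so their share of negative values was close to the 55.3% of genes with at least 10 CPM. Folfiri 1 was lowest in 47.4% of the 19. Hadh, a hydroxyacyl-CoA dehydrogenase shared with fat oxidation, read 228 to 392 CPM in Vehicle and 95.5 to 213 CPM in Folfiri, without overlap (log2 fold change -0.74, SE 0.26, edgeR quasi-likelihood adjusted p = 0.434). Such a separation with Folfiri below was seen in 1 of the 19 and in 2.66% of all genes tested. Hadha, of the trifunctional protein of fat oxidation, had a log2 fold change of -0.69 (SE 0.31), and Bdh1, the ketone body dehydrogenase, -1.66 (SE 0.69). Both were highest in Vehicle 2 and lowest in Folfiri 1 and overlapped between groups. Their edgeR quasi-likelihood adjusted p-values were 0.519 and 0.494. Among 11 transcriptional regulators of oxidative genes, 0 were called, 9 (81.8%) were negative, the median was -0.25, and Folfiri 1 was lowest in 27.3%. The coactivator Ppargc1a read 44.9 to 152 CPM in Vehicle and 42.8 to 58.1 CPM in Folfiri (log2 fold change -0.75, SE 0.33). Esrrg and Ppara, nuclear receptors that act on such genes, had log2 fold changes of -1.34 (SE 0.56) and -1.17 (SE 0.49). All 3 were highest in Vehicle 2 and overlapped between groups, and their edgeR quasi-likelihood adjusted p-values were 0.51, 0.498 and 0.498.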

How the data were processed

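Per the labels and methods of the study, poly(A) RNA of quadriceps was sequenced on the SOLiD platform with strand-specific reads of 75 bases. The authors removed low-quality, rRNA and tRNA reads, aligned what remained to mm9 plus splice junctions using bfast, counted reads per RefSeq gene with bamutils (NGSUtils) and compared groups with edgeR. The deposited table holds these raw counts, used here. It also holds a signal column per library, reads divided by effective library size, and the authors' log2 fold changes and p-values (with false discovery rates), none of them used. The deposited transcript length (bases) served for CPM per kilobase.

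Genes with at least 40 reads summed over 8 libraries (12883 of 12896) were tested in R 4.3.3 with edgeR 4.0.16 (TMM, glmQLFit and glmQLFTest, Benjamini-Hochberg over all genes, called under 0.05), without covariates. The standard error is the log2 fold change over the square root of F. The common coefficient of biological variation was 0.26. Alternatives used DESeq2 1.42.0, limma 3.58.1 and other settings. Steps were tested on simulated data. All library values were given for members with groups apart, the 5 lowest p and 3 highest CPM of each route and 6 control points (Cs, Ogdh, Bcat2, Bckdha, Bckdk, Mut). Of the further lists, the 3 genes of lowest p were named. Members, lists and rules were chosen with earlier results of these data known.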

Additional observations from a re-analysis of the deposited data

Results flagged for a closer look

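Within the 4 Folfiri libraries, Folfiri 1 lay farther from the others than Dixon's criterion allows for Ogdh (399 CPM, others 1140 to 1280), Dld (214 CPM, others 321 to 336), Fh1 (202 CPM, others 380 to 406), Mdh2 (368 CPM, others 817 to 878) and Mdh1 (348 CPM, others 879 to 893). The summed TCA cycle and shuttle level did so too (4720 CPM, others 8520 to 8870). These were the 6 of 72 groups of 4 libraries that met the criterion, which chance meets in about 1 of 20 groups, and the members are not independent of each other. All 6 were Folfiri groups with Folfiri 1 lowest, and the 5 genes belong to the TCA cycle and shuttle.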

How the results depend on the processing

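No member was called under any alternative. The count of genes called, 1 in the main test, was 86 with the edgeR exact test, 101 with the likelihood ratio test, 77 with DESeq2, 3 with limma voom and sample quality weights and 3 with library totals only; it ranged from 0 to 1 when a library was left out and was 0 without both Vehicle 2 and Folfiri 1. Members at an unadjusted p under 0.05, 1 in the main test, numbered 5 with DESeq2 (Idh3b, Dld, Sucla2, Pcca, Acat1). They numbered 2 with RLE size factors. All of these were lower, against 4.88% and 4.37% of all genes. Without Vehicle 2 and Folfiri 1 there were 3 (Got2 and Bckdhb higher, Pcca lower), with 3.58% of all genes lower. In that setting 1107 of 12809 genes met this threshold in either direction, and the share higher was not computed by itself. With the length trend removed there were 3 (all lower), with 3.51% of all genes lower. When a library was left out there were 1 to 5 (all lower), with 3.04% to 4.23% of all genes lower (3.98% without Vehicle 3). Members with groups apart, 1 in the main test, numbered 2 without Vehicle 2 and Folfiri 1 (Got2 above, Pcca below). There 6.95% of all genes lay below, and the share above was not computed. With the length trend removed 2 were apart, both below, against 2.08% of all genes. When a library was left out 1 to 8 were apart, all below, against 3.66% to 4.76% of all genes. The 5 at an unadjusted p under 0.05 and the 8 apart were both without Vehicle 3, where 4.69% of all genes were apart below. The 8 were Idh3b, Dld, Sucla2, Mdh2, Mdh1, Pcca, Mut and Acat1. Pcca was in every one of these sets. The sets reuse the same counts, and groups already apart mostly stay apart when libraries are left out, so this is not further support for Pcca.

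With a replicate block, 3 genes were called and 3 members (Pcca, Pccb, Acat1) had an unadjusted p under 0.05. All 3 members were lower, against 5.48% of all genes. Same-numbered libraries correlated at 0.41, 0.23, 0.06 and 0.30 in their deviations, and Folfiri 3 and 4 correlated best with other numbers. No label ties same-numbered mice to each other and not every pair was over 0.1, so the numbers were not taken to pair the samples; this does not show that they share nothing.

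The TCA median was -0.08 and the branched-chain median -0.14 with voom weights; leaving out a library they ranged from -0.38 to -0.07 and from -0.29 to -0.15. With library totals only they were -0.19 and -0.11 while the median of all genes was 0.14.

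Of 320 values of the 16 members described by library under these alternatives, 315 kept their sign and 0 passed the adjusted threshold. The 5 that turned were Bckdk (-0.012 without Vehicle 4 and -0.13 without Folfiri 3, in a range of -0.13 to 0.16 when a library was left out), Cs (0.0092 without Folfiri 1, the upper end of a range from -0.30, and 0.050 without both Folfiri 1 and Vehicle 2) and Mdh1 (0.0075 without both). Each member had at least 131 reads in each library, and whether the changes in calls between settings have a common cause was not tested.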
